A study of Mus musculus with 38 samples.

Results

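Cathepsins are the acid proteases of the lysosome. Most are cysteine proteases of the papain type, Ctsd is an aspartic protease and Ctsa is a serine carboxypeptidase. They are made as inactive precursors, sorted to endosomes and lysosomes, and matured there, and together they degrade endocytosed and autophagic protein, trim antigens for presentation and process other lysosomal enzymes. In the brain, neurons carry a broad set of them, whereas Ctss is made mainly by microglia, and microglia that gather at amyloid plaques are known for a strong lysosomal programme. The 10 cathepsin genes Ctsa, Ctsb, Ctsc, Ctsd, Ctsf, Ctsh, Ctsl, Ctso, Ctss and Ctsz were found by their Ensembl identifiers among the 48709 genes counted in each mouse, and all 10 passed the filter on low counts in every comparison.

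Hippocampal RNA was sequenced from 38 C57BL/6 mice, either wild-type (WT) or carrying the APP(Swe)/PS1ΔE9 transgenes (APPPS1ΔE9), a model in which mutant amyloid precursor protein and presenilin 1 lead to amyloid plaques. Each genotype received chow with anle138b, a diphenylpyrazole that binds protein oligomers, or placebo chow. At 6 months of age each of the 4 groups held 4 mice, and treatment had begun before plaques form. The authors counted plaques in APPPS1ΔE9 mice of both ages, with generally more severe pathology at 10 months. At 10 months, when treatment had begun after plaque onset, there were 5 WT mice on placebo, 5 WT mice on anle138b, 5 APPPS1ΔE9 mice on placebo and 7 APPPS1ΔE9 mice on anle138b. The whole tissue was lysed, so a change in the number of cells of a type and a change of RNA per cell cannot be told apart.

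The libraries held 15847985 to 31895808 counts, with a median of 24530658, and a cathepsin was covered by between 179 counts (Ctsh) and 21136 counts (Ctsb) in 1 mouse. App, which the transgene raises, stood at 1506 to 1809 CPM (counts scaled to a common library size) in the 18 WT mice and at 3228 to 4318 CPM in the 20 APPPS1ΔE9 mice, without overlap. This includes 4 mice of the 6-month placebo group whose titles say WT and whose genotype field says otherwise, and which were used as WT. At 10 months no sequencing lane held both genotypes, so genotype and lane cannot be told apart there. At 6 months 1 lane held both, with 2 WT mice on anle138b and 4 APPPS1ΔE9 mice on placebo, which differ in chow as well. All APPPS1ΔE9 mice on placebo shared a lane number, and 10 of the 11 on anle138b had another, so chow and lane cannot be told apart in this genotype either. Xist was at 10 CPM or more in 12 of the 38 mice, 11 of them WT. Summed Y-linked expression was at 0 to 1.87 CPM in those 12 mice and at 172 CPM or more in all others. The 12 therefore read as female, although the authors state that all mice were male. Sex goes in part with genotype, and their effects cannot be fully told apart. The summed level of the choroid plexus markers Ttr, Kl and Folr1, which marks how much of the neighbouring plexus came with the dissection, ran from 59.9 to 7796 CPM at 6 months and reached 1000 CPM in 10 of 16 mice. At 10 months it ran from 30.7 to 4254 CPM and reached 1000 CPM in 1 of 22 mice, an APPPS1ΔE9 mouse on anle138b (replicate 5).

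In the 18 WT mice, levels per kilobase of exon spanned a wide range. Ctsb, an abundant cysteine protease with both endopeptidase and dipeptidase activity (ENSMUSG00000021939, chromosome 14, 63122462 to 63145923, plus strand, GRCm38), had the highest level at 92.4 ± 7.92 CPM per kb (SD, n = 18). Ctsd, the main aspartic protease of the lysosome (ENSMUSG00000007891, chromosome 7, 142375911 to 142388038, minus strand), followed at 84.7 ± 20.6 CPM per kb. Ctss, an elastolytic protease that also trims the invariant chain of MHC class II (ENSMUSG00000038642, chromosome 3, 95526786 to 95556403, plus strand), stood at 58.2 ± 6.59 CPM per kb. The ranges of Ctsb and Ctsd overlapped, as did those of Ctsd and Ctss, so the order of these neighbours did not hold in every mouse. Ctss lay wholly above the next gene. In 6-month WT mice the mean of Ctsd was 105.9 on anle138b and 102.9 on placebo, against 96.2 and 103.2 for Ctsb. At 10 months Ctsd had 70.1 and 67.8 against 86.6 for Ctsb on either chow.

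Ctsz, a carboxypeptidase (ENSMUSG00000016256, chromosome 2, 174427493 to 174439039, minus strand), had 24.5 ± 5.16 CPM per kb. Ctsa, the carboxypeptidase that protects Neu1 and Glb1 in a complex (ENSMUSG00000017760, chromosome 2, 164832873 to 164841032, plus strand), had 22.4 ± 1.62 CPM per kb. Ctsl, an endopeptidase (ENSMUSG00000021477, chromosome 13, 64359337 to 64370890, minus strand), had 13.7 ± 2.76 CPM per kb. The ranges of Ctsz and Ctsa overlapped, and so did those of Ctsl and Ctsf.

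Ctsf, a cysteine protease (ENSMUSG00000083282, chromosome 19, 4855130 to 4860918, plus strand), had 11.6 ± 0.627 CPM per kb. Ctso, a little-studied cysteine protease (ENSMUSG00000028015, chromosome 3, 81932601 to 81956725, plus strand), had 8.40 ± 0.910 CPM per kb. Ctsc, the dipeptidyl peptidase that activates granule serine proteases (ENSMUSG00000030560, chromosome 7, 88278085 to 88310888, plus strand), had 2.83 ± 0.871 CPM per kb. Ctsh, an aminopeptidase (ENSMUSG00000032359, chromosome 9, 90054152 to 90076089, plus strand), had 2.66 ± 0.459 CPM per kb. Ctsc and Ctsh were thus the lowest, with overlapping ranges. Ctsa, Ctsb and Ctsz overlap a gene on the other strand, Ctsd overlaps one on its own strand and Ctsl overlaps both kinds, and the strand setting of the counting is not given in the sources used here, so reads of these pairs may be shared or dropped.

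**Figure D1:**
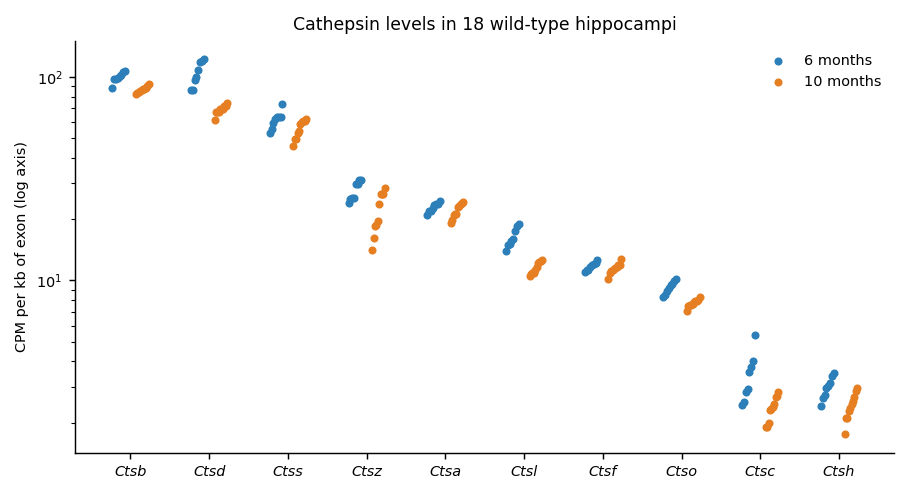
Level of each cathepsin (CPM per kb of exon, log axis) in 18 WT hippocampi, 1 point per mouse, coloured by age. Ctsb had the highest mean level, 92.4, and Ctsh the lowest, 2.66, and several genes sat higher at 6 than at 10 months.

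Because many lysosomal genes carry a CACGTG element, the palindromic site that the lysosomal regulator Tfeb and its relatives can bind, RefSeq promoter windows (GRCm38.p6, 250 bases before to 50 after the start) were searched on both strands. A window was given for 8 of the 10 cathepsins; Ctsb and Ctsh had none. CACGTG was present in 7.15% of all 32851 windows and in those of 4 cathepsins, Ctsa, Ctsd, Ctsf and Ctsl. The longer TCACGTGA, which contains CACGTG, was present in 0.974% of windows and in those of Ctsa and Ctsd. The sites are shown to let the elements be compared between a gene that rose at 10 months and one that did not, with CACGTG in capitals and 5′ to 3′ along the gene:
Ctsd, 98 bases before the start, chr7:142387910-142387935, minus strand: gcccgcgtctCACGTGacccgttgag
Ctsd, 245 bases before the start, chr7:142388057-142388077, minus strand: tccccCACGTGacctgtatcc
Ctsa, 12 bases before the start, chr2:164833751-164833776, plus strand: agcaaactgtCACGTGatgcagatgc
Ctsa, 5 bases after the start, chr2:164833768-164833793, plus strand: tgcagatgctCACGTGaccagagcta
Ctsl, 236 bases before the start, chr13:64370741-64370766, minus strand: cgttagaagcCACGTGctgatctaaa
Ctsf, 79 bases before the start, chr19:4855076-4855101, plus strand: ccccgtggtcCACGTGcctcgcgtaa

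GAGGAAGT, letters of the kind that the myeloid factor PU.1 can bind, was present in 3.20% of windows and in those of Ctss and Ctsc, on the minus strand in both, where the plus strand of the gene reads ACTTCCTC (capitals):
Ctss, 2 bases before the start, chr3:95526774-95526801, plus strand: atgaaagttcACTTCCTCattgtggatg
Ctsc, 151 bases before the start, chr7:88277924-88277951, plus strand: tcactaactaACTTCCTCaggccacctc
These are matches of letters, and binding was not measured.

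The comparison of APPPS1ΔE9 with WT mice at 10 months asked which cathepsins differ at the age with the more severe plaque pathology. With both chows together (12 APPPS1ΔE9 and 10 WT mice, chow as a term), 8 of the 10 were higher in APPPS1ΔE9 mice at an adjusted p under 0.1 and none was lower, whereas 1.43% of the 17668 genes tested were called higher (edgeR quasi-likelihood test, Benjamini-Hochberg adjustment over all genes). Ctss, Ctsd and Ctsz changed most, Ctsh, Ctsl and Ctsc by less, Ctsa and Ctsb by the least, and Ctsf and Ctso did not pass the test. The median log2 difference of the 10 was 0.32 beside 0.00 over all genes tested.

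Ctsd was at 144, 157, 163, 164 and 169 CPM in the 5 WT mice on placebo and at 237, 270, 270, 282 and 342 CPM in the 5 APPPS1ΔE9 mice on placebo. On anle138b it was at 158, 158, 164, 168 and 175 CPM in WT mice and between 260 and 384 CPM, with a median of 295 CPM, in the 7 APPPS1ΔE9 mice. All 12 APPPS1ΔE9 mice lay above the highest WT mouse on either chow. The log2 difference in Ctsd was 0.85 (SE 0.06, adjusted p = 1.5e-08, edgeR).

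Ctss was at 61.99, 72.0, 79.4, 82.8 and 82.9 CPM in WT and at 113, 114, 119, 152 and 160 CPM in APPPS1ΔE9 mice on placebo. On anle138b it was at 67.0, 67.4, 73.9, 81.3 and 84.1 CPM in WT and between 106 and 179 CPM, with a median of 144 CPM, in APPPS1ΔE9 mice. Again the genotypes did not overlap, and the spread within the APPPS1ΔE9 groups (SD 22.5 and 26.1 CPM) exceeded that within the WT groups (SD 8.90 and 7.82 CPM). The log2 difference in Ctss was 0.87 (SE 0.09, adjusted p = 2.3e-06, edgeR).

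Ctsz was at 26.8, 28.3, 34.1, 38.2 and 38.4 CPM in WT and at 43.7, 48.9, 50.3, 55.7 and 66.9 CPM in APPPS1ΔE9 mice on placebo. On anle138b it was at 20.3, 23.3, 26.8, 38.1 and 41.1 CPM in WT and between 41.2 and 76.3 CPM, with a median of 60.003 CPM, in APPPS1ΔE9 mice. The genotypes were just apart: the highest WT mouse and the lowest APPPS1ΔE9 mouse were nearly level. The log2 difference in Ctsz was 0.81 (SE 0.13, adjusted p = 8.9e-04, edgeR).

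These 3 were the only members whose genotypes did not overlap over both chows, as was the case, in the direction of higher values, for 0.395% of all genes. Among the members with intermediate changes, Ctsh rose from 7.90 to 13.3 CPM in WT to 12.3 to 17.6 CPM in APPPS1ΔE9 mice (log2 difference 0.46, SE 0.09, adjusted p = 0.0033, edgeR), with 9 of 12 APPPS1ΔE9 mice above the highest WT mouse. Ctsl was at 68.2 to 81.9 CPM in WT and 81.6 to 110 CPM in APPPS1ΔE9 mice (0.34, SE 0.05, adjusted p = 2.7e-04, edgeR), with 11 of 12 above. Ctsc was at 11.1 to 16.4 CPM in WT and 13.5 to 20.8 CPM in APPPS1ΔE9 mice (0.31, SE 0.08, adjusted p = 0.0731, edgeR), with 7 of 12 above. These rises were all smaller than those of Ctsd and Ctss.

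Ctsb, the most abundant member, was at 498 to 559 CPM in WT and 557 to 671 CPM in APPPS1ΔE9 mice (log2 difference 0.20, SE 0.03, adjusted p = 7.8e-04, edgeR), with 11 of 12 above the highest WT mouse. Ctsa was at 90.6 to 115 CPM in WT and 102 to 136 CPM in APPPS1ΔE9 mice (0.21, SE 0.05, adjusted p = 0.0681, edgeR), with 8 of 12 above. Ctsb thus differed by little but in nearly every mouse, while the Ctsa ranges overlapped for several mice. Ctsf had a log2 difference of -0.01 (95% interval -0.10 to 0.09), and Ctso of -0.01 (95% interval -0.11 to 0.09), so a difference of the size seen in Ctsl lies outside both intervals. Leaving out 1 mouse at a time or changing 1 setting kept 6 calls throughout (Ctsb, Ctsd, Ctsh, Ctsl, Ctss and Ctsz, 31 alternatives), while the Ctsa call was lost in 13 and the Ctsc call in 15 of them. Among mice with low Xist alone, those 6 were called.

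**Figure D2:**
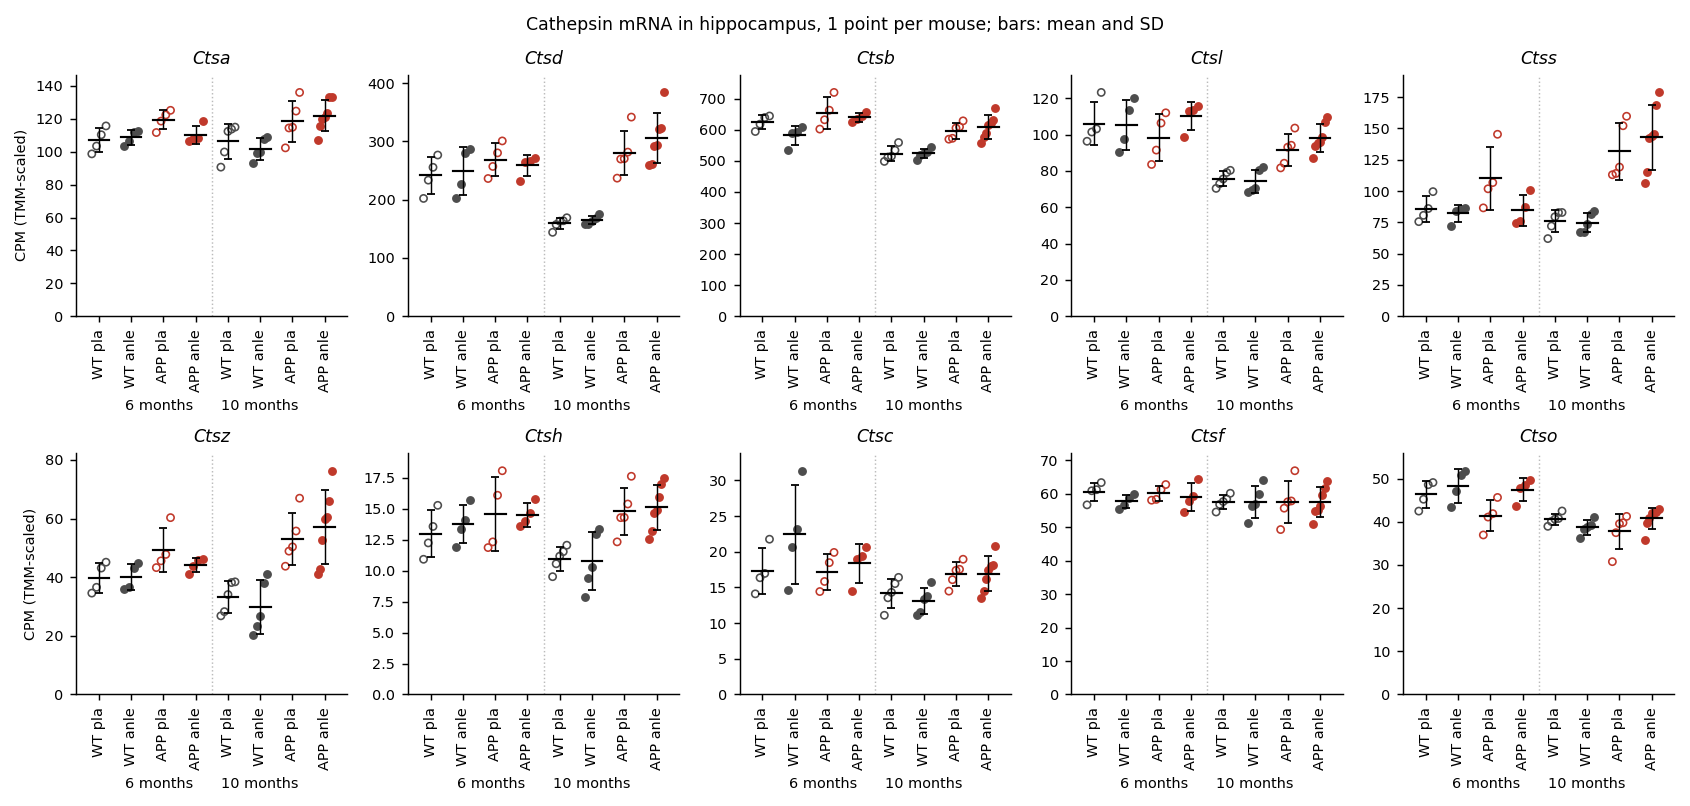
Level of each cathepsin (CPM) in every mouse by age, genotype and chow; open points are placebo, filled points anle138b, and bars give mean and SD. At 10 months Ctsd, Ctss and Ctsz of the 12 APPPS1ΔE9 mice lie above those of the 10 WT mice, whereas Ctsf and Ctso overlap throughout.

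Within each chow the samples are fewer and the calls fewer. On placebo, Ctsd (log2 difference 0.81, SE 0.09, adjusted p = 0.0034) and Ctss (0.79, SE 0.12, adjusted p = 0.0249) passed the test, 2 of 10 members beside 0.324% of genes called higher (edgeR). Ctsz followed at 0.67 (adjusted p = 0.118), Ctsh at 0.43 (adjusted p = 0.272), Ctsl at 0.27 (adjusted p = 0.444) and Ctsb at 0.19 (adjusted p = 0.570) (edgeR). These 4 did not overlap between genotypes either, so that 6 members were apart in this comparison, beside 1.06% of genes that were apart and higher. With expression of Y-linked genes as a covariate neither Ctsd (adjusted p = 0.117) nor Ctss (adjusted p = 0.735) passed (edgeR), with a log2 difference in Ctss of 0.67; the difference in Ctsd was at least 0.72 under all 18 alternatives, and in this comparison Xist was at 10 CPM or more in 3 of 5 WT and in 0 of 5 APPPS1ΔE9 mice.

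On anle138b, Ctsd (0.89, SE 0.09, adjusted p = 4.5e-04), Ctss (0.93, SE 0.13, adjusted p = 0.0048), Ctsl (0.40, SE 0.07, adjusted p = 0.0183) and Ctsz (0.93, SE 0.20, adjusted p = 0.0908) were higher in APPPS1ΔE9 mice, 4 of 10 members beside 0.694% of genes (edgeR). The Ctsz call was lost when any 1 of 8 of the 12 mice was left out. Ctsh was at 0.48 (adjusted p = 0.295), Ctsa at 0.26 (adjusted p = 0.139), Ctsb at 0.21 (adjusted p = 0.121) and Ctsc at 0.37 (adjusted p = 0.522) (edgeR). Of the 10, Ctsb, Ctsd, Ctsl, Ctss and Ctsz did not overlap between genotypes, beside 0.757% of genes that were apart and higher. The 2 comparisons use different mice throughout.

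At 6 months, 0 of 10 cathepsins passed the test between APPPS1ΔE9 and WT mice, with both chows together (0.172% of genes called) or on placebo (0.0715%) or anle138b (0.047%) alone; at an unadjusted p under 0.05 Ctsa, Ctsb and Ctsz were higher with both chows, where 1825 of 17404 genes passed that limit in either direction, and DESeq2 called none. Ctsz was at 34.6, 36.6, 43.1 and 45.1 CPM in WT and at 43.3, 45.6, 47.8 and 60.3 CPM in APPPS1ΔE9 mice on placebo, and its log2 difference with both chows was 0.22 (95% interval 0.06 to 0.38, adjusted p = 0.373, edgeR). Ctss was at 75.5, 80.6, 86.01 and 99.5 CPM in WT and at 86.5, 102, 107 and 145 CPM in APPPS1ΔE9 mice on placebo (both chows 0.20, 95% interval -0.02 to 0.43, adjusted p = 0.524, edgeR). Ctsd was at 202, 234, 256 and 277 CPM in WT and at 236, 257, 280 and 301 CPM in APPPS1ΔE9 mice on placebo (both chows 0.10, 95% interval -0.07 to 0.27, adjusted p = 0.666, edgeR). Over all mice of that age, Ctsz, Ctss and Ctsd overlapped between genotypes, and the upper bounds lie below the 10-month differences of the same genes. On placebo, choroid plexus markers reached 1000 CPM in 3 of 4 WT and 1 of 4 APPPS1ΔE9 mice. Among 6-month mice under 1000 CPM (2 WT, 4 APPPS1ΔE9), Ctsz, Ctss, Ctsd and Ctsa did not overlap, with Ctsz at 34.6 to 36.04 against 41.04 to 60.3 CPM. The share of all genes apart in this small subset was not worked out. The limit was also set after seeing the data, so no genotype difference is read from it. With the markers as a covariate, the placebo log2 difference was 0.25 for Ctsd, 0.35 for Ctsz and 0.22 for Ctss. Without it these were 0.15, 0.31 and 0.37, and none passed the test in either fit (edgeR). Ctsb on anle138b did not overlap, at 536 to 609 CPM in WT and 624 to 658 CPM in APPPS1ΔE9 mice (log2 difference 0.14, adjusted p = 0.836, edgeR), beside 1.84% of genes that were apart and higher.

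The difference between the 2 ages was itself tested in 1 fit over all 38 mice. The ages were separate cohorts, and their titles repeat the same sample and lane numbers. Age therefore cannot be told apart from cohort or sequencing run. The genotype effect was larger at 10 months for Ctsd, by 0.75 on the log2 scale (SE 0.11, adjusted p = 6.4e-04), and for Ctss, by 0.66 (SE 0.14, adjusted p = 0.0552), 2 of 10 members beside 0.17% of genes with a larger effect (edgeR). The Ctss call was lost when any 1 of 14 of the 38 mice was left out. Ctsl (0.36, adjusted p = 0.136), Ctsz (0.58, adjusted p = 0.294), Ctsc (0.46, adjusted p = 0.420) and Ctsh (0.34, adjusted p = 0.534) did not pass (edgeR). The WT mice of the 2 ages also stood at different Ctsd levels, which were not compared by a test: Ctsd was at 202 to 286 CPM in 6-month and 144 to 175 CPM in 10-month WT mice, against 232 to 301 and 237 to 384 CPM in APPPS1ΔE9 mice. In WT mice Ctsl stood at 90.4 to 123 CPM at 6 and 68.2 to 81.9 CPM at 10 months, and Ctss at 72.4 to 99.5 and 61.99 to 84.1 CPM.

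**Figure D3:**
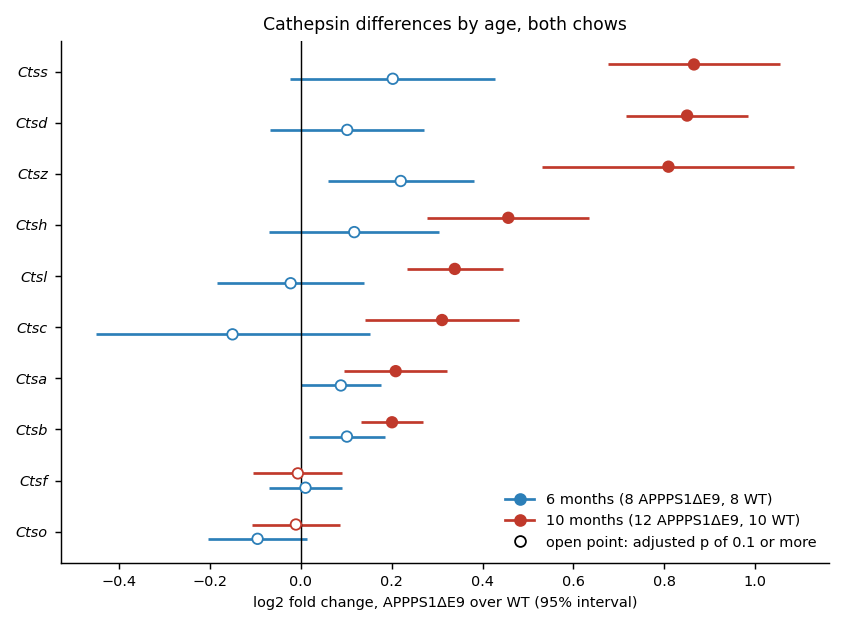
Log2 difference between APPPS1ΔE9 and WT mice for each cathepsin at 6 and 10 months (both chows, points with 95% intervals; filled points passed an adjusted p of 0.1). At 10 months 8 points are filled and at 6 months 0, with Ctsf near 0 at both ages and Ctso at -0.10 at 6 and -0.01 at 10 months.

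Choroid plexus markers moved with several cathepsins in WT mice at 6 months. Among the 8 WT mice of that age, Ctsd was at 202 and 203 CPM in the 2 with choroid plexus markers under 1000 CPM and at 226 to 286 CPM in the other 6. Ctsl was at 90.4 and 96.3 CPM against 97.7 to 123 CPM, and Ctsc at 14.1 and 14.6 CPM against 16.4 to 31.3 CPM. Ctsz was at 34.6 and 36.04 CPM against 36.6 to 45.1 CPM, and Ctsa at 98.7 and 103.37 CPM against 103.45 to 116 CPM. Ctsb, Ctsf, Ctsh and Ctso overlapped. Ctss went the other way, at 86.7 and 99.5 CPM against 72.4 to 86.01 CPM, and in the 8 APPPS1ΔE9 mice at 101 to 145 CPM in the 4 with low markers against 74.4 to 86.96 CPM in the 4 with high markers. In those 8 APPPS1ΔE9 mice Ctsd overlapped, at 232 to 301 CPM (median 247) with low and 265 to 280 CPM (median 269) with high markers. Their Ctsl was at 83.5 to 106 against 112 to 116 CPM.

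In 6-month WT mice the choroid plexus list thus stood high where Ctsd, Ctsl, Ctsc, Ctsz and Ctsa stood high. Only 2 of these WT mice had low markers, and the share of all genes split in this way was not worked out. With these markers as a covariate the age test still called Ctsd (0.70, adjusted p = 0.0013) and Ctss (0.72, adjusted p = 0.0136) (edgeR). With only the mice under 1000 CPM, which left 2 WT and 4 APPPS1ΔE9 mice at 6 months, Ctsd was at 0.58 (adjusted p = 0.660) and Ctss at 0.66 (adjusted p close to 1), and neither was called (edgeR). At 10 months all 10 WT mice and 11 of 12 APPPS1ΔE9 mice were under 1000 CPM, and 7 of the 8 calls over both chows were made among them, without Ctsc.

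**Figure D4:**
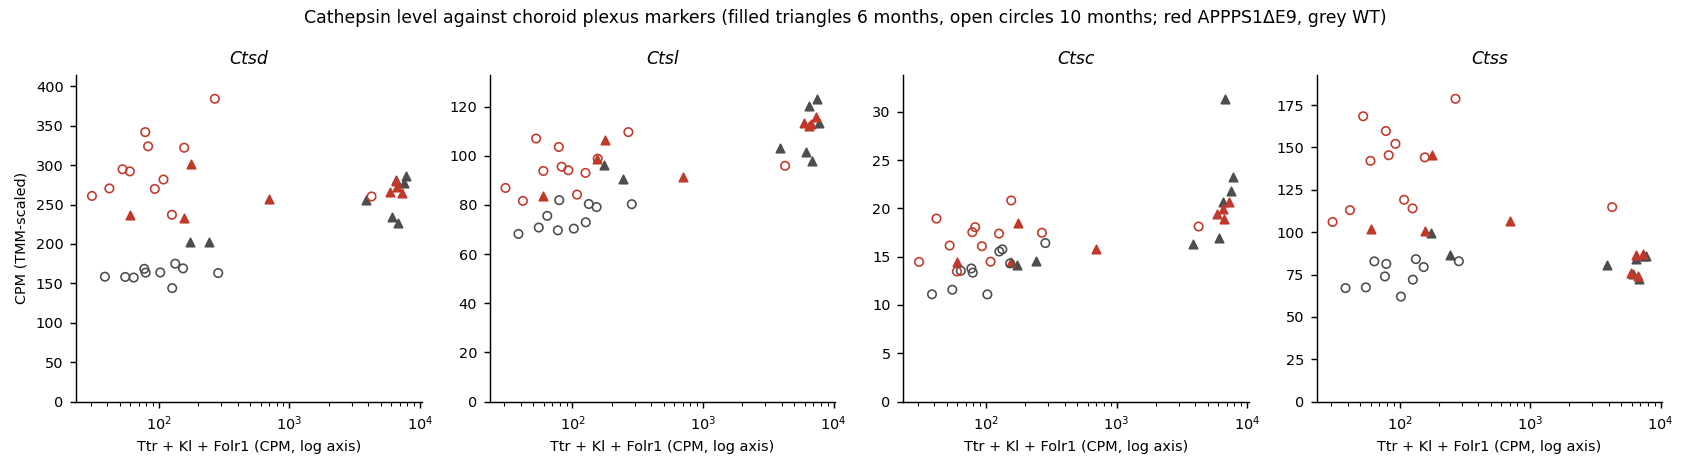
Level of Ctsd, Ctsl, Ctsc and Ctss (CPM) against the summed choroid plexus markers Ttr, Kl and Folr1 (CPM, log axis), 1 point per mouse, filled triangles at 6 months and open circles at 10 months. The 6-month WT mice with high markers have Ctsd at 226 to 286 CPM, above the 10-month WT mice at 144 to 175 CPM.

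Whether anle138b altered any cathepsin was asked within each genotype and age. In none of the 4 comparisons of anle138b with placebo, nor in the genotype by chow interaction at either age, did any of the 10 pass the test (edgeR). Of all genes 0.0529% were called in 6-month APPPS1ΔE9 mice and 0 in the other 3 comparisons and both interactions. With DESeq2 no cathepsin was called either, although 204 genes were in 6-month APPPS1ΔE9 mice; at an unadjusted p under 0.05, edgeR gave 2233, 254, 310 and 212 genes in 6-month APPPS1ΔE9, 10-month APPPS1ΔE9, 6-month WT and 10-month WT mice, and 1390 and 407 for the interactions at 6 and 10 months.

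In 10-month APPPS1ΔE9 mice, anle138b minus placebo was 0.13 for Ctsd (95% interval -0.10 to 0.36), 0.12 for Ctss (-0.18 to 0.42) and 0.11 for Ctsz (-0.23 to 0.44) on the log2 scale. The intervals of Ctsd and Ctss leave out a fall by as much as the genotype raised either gene. In 6-month APPPS1ΔE9 mice Ctss was at 74.4, 76.1, 86.96 and 101 CPM on anle138b and at 86.5, 102, 107 and 145 CPM on placebo, a log2 difference of -0.38 (95% interval -0.79 to 0.03, adjusted p = 0.408, edgeR). The choroid plexus markers reached 1000 CPM in 3 of the 4 mice on anle138b and in 1 of the 4 on placebo. Ctso was at 0.19 (95% interval 0.05 to 0.34, adjusted p = 0.329) and Ctsa at -0.12 (95% interval -0.23 to -0.00, adjusted p = 0.372) in the same comparison (edgeR).

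A plaque microglia score, the mean log2 CPM over 19 genes such as Cst7, Itgax, Clec7a and Trem2 that mark microglia at plaques and that include no cathepsin, was compared with each member. The score was higher in APPPS1ΔE9 than in WT mice by 0.80 on placebo and 0.45 on anle138b at 6 months (exact permutation p = 0.0286 in both, two-sided, the smallest that 4 against 4 mice allow). At 10 months it was higher by 1.30 on placebo (exact permutation p = 0.00794) and 1.46 on anle138b (exact permutation p = 0.00126), again the smallest these numbers allow. A score of 12 homeostatic microglia genes was higher by 0.36 on placebo (exact permutation p = 0.00794) and 0.44 on anle138b (exact permutation p = 0.00379) at 10 months. Both microglial scores were therefore higher in 10-month APPPS1ΔE9 mice, by different amounts. The lists were chosen with earlier results of these data known, so these differences describe the groups and are not independent support.

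Within the 12 APPPS1ΔE9 mice of 10 months, where genotype does not vary, Ctsz rose by 0.93 on the log2 scale per unit of the plaque microglia score (SE 0.13, adjusted p = 0.0293) and Ctsd by 0.62 (SE 0.10, adjusted p = 0.0745), 2 of 10 members beside 0.0877% of genes with a called rise (edgeR). Ctsh (0.58, adjusted p = 0.143), Ctss (0.74, adjusted p = 0.244), Ctsa (0.34, adjusted p = 0.413) and Ctsb (0.24, adjusted p = 0.424) had positive slopes that did not pass (edgeR). Ctsf (0.26), Ctsl (0.26), Ctso (0.21) and Ctsc (0.15) had the smaller slopes and did not pass. Without the APPPS1ΔE9 mouse on anle138b with high choroid plexus markers (replicate 5), which also had the lowest score, 0 members were called, with slopes of 0.97 for Ctsz (adjusted p = 0.165) and 0.73 for Ctsd (adjusted p = 0.125) (edgeR). Without the placebo mouse with the highest score (replicate 5), 0 were called as well. The Ctsd call was lost when any 1 of 10 of the 12 mice was left out, and the Ctsz call for 2 of the 12.

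As a description over the same 12 mice, Pearson's r with the score was 0.91 for Ctsz (Spearman's rho 0.90), 0.91 for Ctsh (0.90), 0.90 for Ctsd (0.94), 0.83 for Ctsb (0.80), 0.81 for Ctss (0.75), 0.74 for Ctsa (0.74), 0.61 for Ctsl (0.60), 0.54 for Ctsf (0.55), 0.50 for Ctso (0.57) and 0.21 for Ctsc (0.22). Without the 2 mice farthest from the median score, r was 0.88 for Ctsz, 0.86 for Ctsh, 0.91 for Ctsd and 0.79 for Ctss. Of all genes 0.433% had an r over 0.8 in these mice. Score and cathepsin come from the same library in each point, so that the amount of microglial RNA and the choroid plexus share enter both.

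In the 10 WT mice of 10 months the order differed: r was 0.87 for Ctsh, 0.86 for Ctsc, 0.78 for Ctss and 0.78 for Ctsz, but 0.10 for Ctsd and -0.72 for Ctsb, and 2.46% of all genes had an r over 0.8. Without the 2 WT mice farthest from the median, r fell to 0.72 for Ctsh, 0.74 for Ctsc, 0.70 for Ctss and 0.44 for Ctsz, and stood at -0.82 for Ctsb. Those 2 mice were the WT mice on anle138b with Xist under 10 CPM, with scores of 1.81 and 1.86. The other 3 on anle138b, with higher Xist, had scores of 2.32 to 2.41. On placebo the scores were 2.25 and 2.28 with low Xist and 1.92 to 2.40 with high Xist. The part of sex in these r was not tested. In WT mice the score rests in part on genes near the floor, such as Cst7 at 0.0405 to 0.463 CPM. The difference in r between genotypes was not tested.

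**Figure D5:**
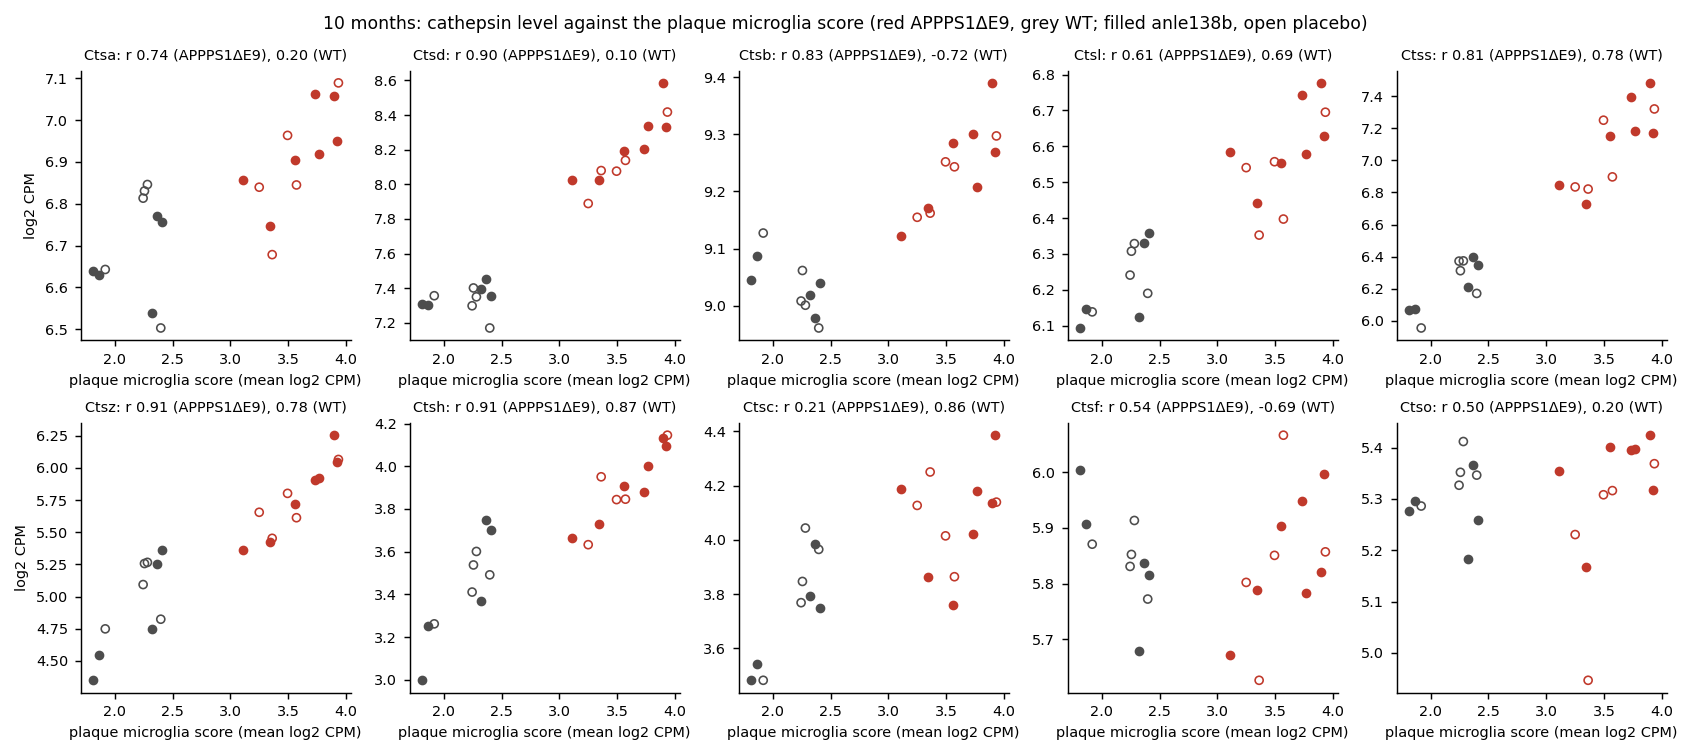
Log2 CPM of each cathepsin against the plaque microglia score in the 22 mice of 10 months, red APPPS1ΔE9 and grey WT, filled anle138b and open placebo. In APPPS1ΔE9 mice r was 0.91 for Ctsz and 0.90 for Ctsd, while in WT mice Ctsd had an r of 0.10.

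Once the mean of each of the 8 groups was removed, the members still differed in what they followed over the 38 mice. Ctsz and Ctsh had r of 0.83 with the plaque microglia score, beside a median of 0.00 and a 95th percentile of 0.44 over all genes, and an r of 0.82 with each other. Ctss had an r of 0.90 with the homeostatic microglia score and 0.70 with the plaque score, and the genes most like it included the microglial genes Ly86 (r = 0.93) and C1qb (0.89). Ctsh was most like Pros1 (0.83), Ctsz and Lyz2 (0.81), and Ctsz most like Vsir (0.86), Rnase4 (0.86) and Arpin (0.84). Ctss and Ctsh thus sat near known myeloid genes, of which Lyz2 also belongs to the plaque score. With the astrocyte markers Ctss had an r of 0.63 and Ctsh of 0.62, and Ctss had 0.56 with the oligodendrocyte markers.

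Ctsd was most like Itgb5 (0.79), Retsat (0.78) and Lgmn (0.76), the last an asparaginyl protease of the lysosome, and had an r of 0.66 with the plaque score. Ctsb was most like Grn (0.70), the progranulin gene, Lag3 (0.66) and the microglial gene Fcrls (0.65). Ctsl was most like Fxyd1 (0.85) and Ctsc most like Creb3l1 (0.82), and these 2 members had r of 0.58 and 0.66 with the choroid plexus score, while Ctss had -0.31. Ctsa had an r of 0.67 with the oligodendrocyte and 0.64 with the dentate granule cell markers, above its 0.54 with the plaque score, and Ctsz had 0.69 and 0.56 with these marker lists. Ctsa was most like Sun2 (0.84), Ctsf most like Hes6 (0.80) and Ctso most like Ighd (0.80). Ctsf had an r of 0.19 with the plaque score and 0.03 with the homeostatic score.

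Genes that act with the cathepsins were read from fixed lists in the 10-month comparison over both chows. Of 4 other cathepsin genes 3 were tested and 1 rose: Ctse, an aspartic protease of immune cells, had 0 to 4 counts in the 10 WT mice and 7 to 25 counts in the 12 APPPS1ΔE9 mice (log2 difference 3.11, adjusted p = 2.5e-05, edgeR), while Ctsk and Ctsw did not pass. Of 5 cathepsin inhibitors and activators 2 rose. Cst7, an inhibitor of cysteine cathepsins that is also 1 of the 19 score genes, was at 0.0405 to 0.463 CPM in WT and 6.70 to 21.6 CPM in APPPS1ΔE9 mice (6.22, adjusted p = 8.9e-12, edgeR). Lgmn, which processes cathepsin precursors, was at 80.8 to 97.2 CPM in WT and 92.6 to 115 CPM in APPPS1ΔE9 mice (0.22, adjusted p = 0.00168, edgeR). Cst7 thus had the larger rise on the log2 scale, but from near the floor, at 1 to 11 counts in WT mice. Median CPM went from 0.137 to 15.6 for Cst7 and from 90.7 to 105 for Lgmn. Cst3, Cst6 and Cstb did not pass, with Cst3 at a median of 849 CPM in WT and 1013 CPM in APPPS1ΔE9 mice.

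Of 9 sorting and partner genes, among them the mannose 6-phosphate receptors and Psap, 1 rose: Grn, whose product supports Ctsd maturation, was at 52.4 to 61.9 CPM in WT and 64.6 to 84.1 CPM in APPPS1ΔE9 mice (log2 difference 0.42, adjusted p = 5.0e-07, edgeR). Neu1 and Glb1, the partners of Ctsa, were at 0.06 and 0.07 and did not pass. Of 4 regulators of the Tfeb family 3 were tested and 0 passed, with log2 differences of 0.06 to 0.09. Of 6 genes of antigen processing 1 rose, the lysosomal thiol reductase Ifi30 (0.44, adjusted p = 0.0915, edgeR), whereas Cd74 was at 0.51 (adjusted p = 0.815, edgeR).

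Markers of other cells were read in the same comparison. Of the 19 plaque microglia genes 14 rose (median log2 difference 1.22) and of the 12 homeostatic microglia genes 8 rose (median 0.39), so the called cathepsins stood beside higher levels of both kinds of microglial gene. Of 5 astrocyte genes 1 rose, Gfap (0.99). Among 5 genes of border macrophages (median -0.32), 6 of neurons (0.03), 5 of oligodendrocytes (0.03), 3 of endothelium (0.08), 3 of dentate granule cells (0.04) and 3 of choroid plexus (0.77), 0 passed. Of 3 neutrophil genes 1 was tested and it did not pass. The part that microglial number has in the cathepsin differences was not tested.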

How the data were processed

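Hippocampal mRNA libraries (TruSeq) of 38 mice were analysed. The authors aligned reads to mouse build mm10 with STAR, counted them per Ensembl gene with HTSeq in its mode for non-empty intersections and tested with DESeq2, and the deposited values are raw counts. Of 48709 genes, 48349 had a symbol in GENCODE M21. The 10 genes, lists and tests were chosen with earlier results of these data known. Counts were filtered (filterByExpr, minimum count 10), scaled by TMM and tested with edgeR 4.0.16 (R 4.3.3) quasi-likelihood fits with robust dispersion, only the groups compared, Benjamini-Hochberg adjusted over all genes kept, threshold 0.1; simulated counts with known changes were used to check the scripts. CPM are TMM-scaled, scores use a prior count of 2, intervals are 95%. The text names all 10 members, list genes that passed at 10 months, and the 3 genes most alike (r of log2 CPM after group means were removed), except for an item that is not reported here. Alternatives were DESeq2 1.42.0, other size factors, no filter, a replicate block, Y-linked expression, Xist, other scores and 1 mouse left out. Choroid plexus alternatives were added after seeing the data. Separate mouse numbers mark separate animals; the 75 pairs of mice within a group all differed by more than counting error (a chi-square statistic over genes of 3.08 or more per degree of freedom). Counting precision follows depth, as given with each level.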

Additional observations from a re-analysis of the deposited data

Results flagged for a closer look

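Ctsa in 6-month APPPS1ΔE9 mice on anle138b had 1 mouse far from the others: replicate 1 was at 118.5 CPM and the other 3 at 106 to 108.4 CPM. It was the only such case among the 80 groups of mice and genes examined, and chance marks about 1 in 20 groups. Its choroid plexus markers summed to 6678 CPM.

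The genotype effect differed between ages, which are also separate cohorts, for 2 cathepsins. It was larger at 10 than at 6 months by 0.75 on the log2 scale for Ctsd and by 0.66 for Ctss (adjusted p = 6.4e-04 and 0.0552, edgeR), and the Ctss call was lost when any 1 of 14 of the 38 mice was left out. Choroid plexus markers were high in 10 of 16 mice at 6 months and in 1 of 22 at 10 months, and the share of the age difference that goes with them was not tested beyond the values given above.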

How the results depend on the processing

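Every called member difference kept its direction in all alternatives, while 41 of 140 member results, 0 of them called, took both signs; of the values by alternative, 3066 kept their side of the threshold, 84 lost a call and 26 gained one. On placebo at 10 months (2 members), DESeq2 called 5, the choroid plexus covariate 1 and the Y-linked covariate 0. On anle138b at 10 months (4), DESeq2 and the Y-linked covariate each called 7. The age test (2) called 1 at an adjusted p under 0.05, 1 with no filter and 0 with low choroid plexus markers only. The score slope (2) called 1 at an adjusted p under 0.05, 5 with DESeq2, 1 with low Xist only, 0 with the median over the score genes and 0 with low choroid plexus markers only. Mouse numbers did not pair the samples (in no comparison were all correlations over 0.1); with the replicate block, 1 was called on placebo, 1 on anle138b, and 0 for the score slope, and the score differences of 1.30 and 1.42 had an exact p of 0.0625, the smallest that 5 pairs allow. The causes were not tested.

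Leaving out 1 mouse gave 6 to 8 members over both chows at 10 months, 2 to 3 on placebo, 3 to 6 on anle138b, 1 to 3 in the age test, 0 to 2 for the score slope, and 0 to 0 elsewhere. The age test called Ctsd alone without 10-month APPPS1ΔE9 replicate 7 (anle138b), 4 or 5 (placebo), 10-month WT replicate 2 (anle138b) or 4 (placebo), 6-month APPPS1ΔE9 replicate 1, 2 or 3 of either chow, or 6-month WT replicate 1 (anle138b), 2 or 4 (placebo), and Ctsl as well without 10-month APPPS1ΔE9 replicate 4 (anle138b) or 2 (placebo), 6-month APPPS1ΔE9 replicate 4 (placebo) or 6-month WT replicate 4 (anle138b). The slope called Ctsz alone without replicate 1, 3, 4 or 6 (anle138b) or 1, 3 or 4 (placebo), and Ctsz with Ctsh without placebo replicate 2.

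Counts over all genes moved more. DESeq2 called 139 in place of 12 on placebo and 47 in place of 8 on anle138b at 6 months, 118 in place of 30 over both chows there, 189 in place of 124 on anle138b and 104 genes higher and 4 lower in place of 55 higher and 0 lower on placebo at 10 months, 204 in place of 9 for anle138b in 6-month APPPS1ΔE9 mice, 22 and 2 in place of 0 for the interactions, 60 in place of 32 for age and 148 in place of 16 for the slope. With no filter these were 110 on placebo at 6 months, 120 for anle138b in 6-month APPPS1ΔE9 mice and 10 for age. With the Y-linked covariate they were 4 on placebo and 7 over both chows at 6 months, 14 on placebo and 272 on anle138b at 10 months, and 71 for anle138b in 6-month APPPS1ΔE9 mice. With the replicate block they were 13 on anle138b at 6 months, 25 on placebo and 20 on anle138b at 10 months, 20 for age and 0 for the slope. A single fit of the 4 groups of an age gave 35 on placebo at 6 months and 3 for anle138b in 6-month APPPS1ΔE9 mice. With low Xist only, 5 were called over both chows at 6 and 141 in place of 275 at 10 months. The choroid plexus covariate gave 31 on placebo at 10 months and 5 for anle138b in 6-month APPPS1ΔE9 mice, and low choroid plexus markers only gave 13 over both chows at 6 months and 0 for age. An adjusted p under 0.05 left 77 on anle138b at 10 months, 18 over both chows at 6 months and 11 for age. Leaving out 1 mouse gave 6 to 205 on placebo (205 without APPPS1ΔE9 replicate 1, 23 without WT replicate 3), 9 to 44 on anle138b (44 without APPPS1ΔE9 replicate 4) and 13 to 32 over both chows at 6 months, 37 to 67, 63 to 151 and 224 to 296 at 10 months, 9 to 43 for age and 9 to 17 for the slope. For anle138b in 6-month APPPS1ΔE9 mice it gave 6 to 317, 317 without placebo replicate 1 and 16 without anle138b replicate 4, and for the 6-month interaction 0 to 22, 22 without that placebo mouse. The slope gave 3 with the median score, 44 with the homeostatic score and 29 with no chow term.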
